A study of Mus musculus with 24 samples.

Results

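The interferon-stimulated genes described here are 50 genes given as a list of symbols, written with earlier results of these data known, of the 55376 genes counted in the series, and all 50 had counts in every group. They were read in RNA-seq libraries of sorted mouse bone marrow cells, long-term hematopoietic stem cells (HSC, sorted as LSK CD34-Flk2-CD150+) and the myeloid-biased multipotent progenitor MPP3. The mice were homozygous TTPΔARE mice, which lack the AU-rich element of the Zfp36 transcript in all tissues and therefore make more tristetraprolin (TTP), and their wild-type (WT) littermates, all male and untreated. The groups were Y-WT HSC (n = 4), Y-TTPΔARE HSC (n = 4), M-WT HSC (n = 5), M-TTPΔARE HSC (n = 3), Y-WT MPP3 (n = 4) and Y-TTPΔARE MPP3 (n = 4), where Y is young and M is middle-aged, as the labels give age. The deletion is in the germline, so blood cells and all tissues around them carry it, and each group is a sorted bulk population, in which fewer cells of a type and less RNA per cell cannot be told apart.

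Interferons are secreted proteins that warn cells of viral and other infection. Type I interferons signal through the receptor chains Ifnar1 and Ifnar2 to a transcription factor complex that contains Stat2 and Irf9 and binds the interferon-stimulated response element (ISRE), whereas interferon gamma signals through Ifngr1 and Ifngr2 to the gamma-activated site (GAS). The genes turned on by these pathways degrade RNA, block translation and viral entry, tag proteins with the ubiquitin-like protein ISG15 and attack intracellular parasites. Interferon exposure can drive quiescent HSC into division. TTP is an RNA-binding protein that binds AU-rich elements of inflammatory transcripts and promotes their decay.

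The regulatory sequence shared by many of the members was looked up first, as promoter windows of 300 bases, from 250 before to 50 after the start site, of RefSeq on GRCm38.p6. Windows were found for 37 of the 50 members. The core of the ISRE, searched on both strands as GAAA, any 2 bases and GAAA (TTTC, any 2 bases and TTTC on the opposite strand), was present in 21 of these 37 members, 56.8%, against 3.99% of the 27025 gene symbols with a window. Counted by window, 22 of the members' 44 windows held it, against 3.44% of all 32851 windows. The core of the GAS, TTCNNNGAA, which reads the same on both strands, was present in 11 of the 37 members, 29.7%, against 9.55% of all symbols and 8.3% of all windows. The 32 ISRE core matches of the members lay upstream of the start site in 26 cases and within 100 bases upstream of it in 17, 2 of them overlapped a GAS core, and 10 members had 2 or more. A match of these letters is a description of the window and not a measured binding site.

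**Figure D1:**
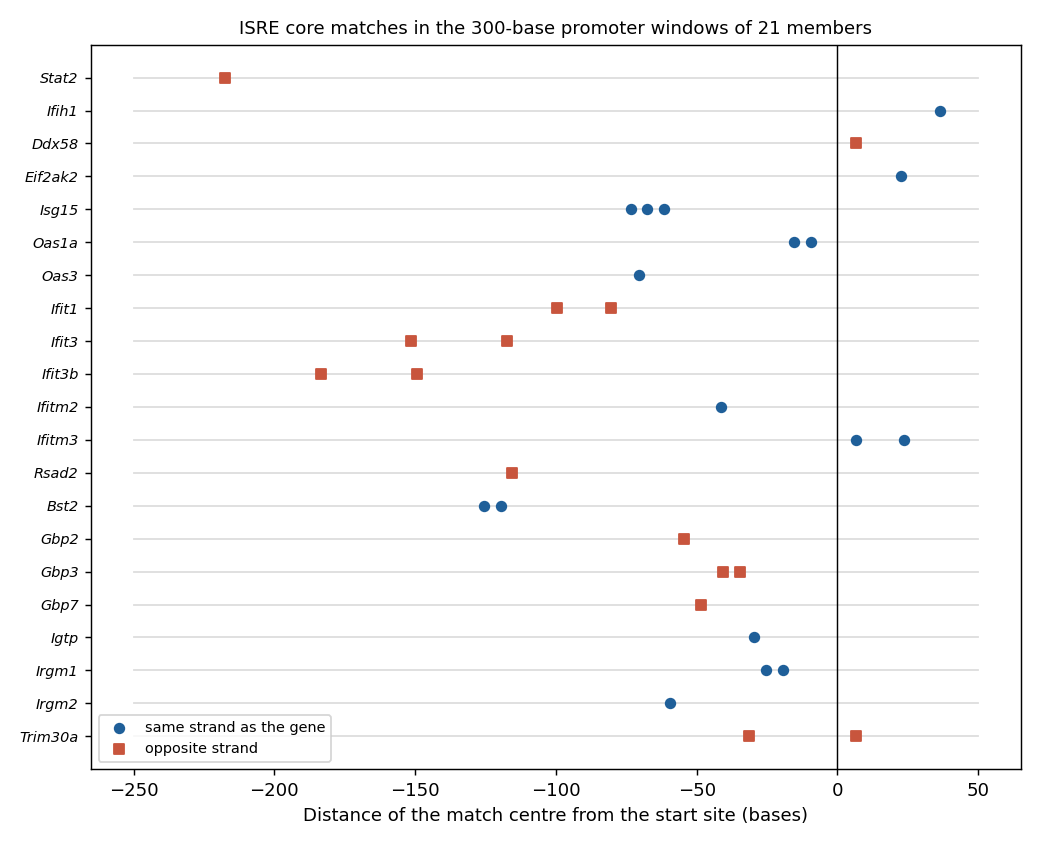
Positions of ISRE core matches along the promoter windows of the members that hold one. The x axis is the distance from the RefSeq start site in bases, each line is 1 member and each mark is 1 match, on the same strand as the gene or on the opposite strand, so that a reader sees 26 of the 32 matches to the left of the start site.

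Matches are printed for 6 members whose libraries did not overlap between Y-WT and Y-TTPΔARE MPP3 (Isg15, Ifit3, Bst2, Igtp, Irgm1 and Gbp2), so that they can be set beside 4 members with the same letters whose libraries did overlap (Ifit1, Rsad2, Oas3 and Oas1a). Irgm2, the neighbour of Igtp, is added because its run resembles that of Igtp while its libraries overlapped. Each run is written 5′ to 3′ on the strand of the gene, with the ISRE core in capitals.
Isg15: aggaaaccGAAACAGAAAatagctct
Ifit3: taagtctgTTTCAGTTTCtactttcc
Bst2: aggaaaatGAAACTGAAAggctgcag
Igtp: taggaactGAAACTGAAAgctgttcg
Irgm1: aagaaataGAAACCGAAActgattct
Gbp2: tcttttagTTTCACTTTCactgtctt
Ifit1: agtctcagTTTCAGTTTCtcactgct
Rsad2: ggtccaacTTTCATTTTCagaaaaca
Oas3: agggaggaGAAAACGAAAgtgaaggg
Oas1a: gggaaatgGAAACTGAAAatctactt
Irgm2: caggaactGAAACTGAAAgctgttcg

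On GRCm38.p6 these runs lie at chr4:156200867-156200892 (minus strand) for Isg15, chr19:34583399-34583424 (plus) for Ifit3 and chr8:71537579-71537604 (minus) for Bst2. They lie at chr11:58199514-58199539 (plus) for Igtp, chr11:48871427-48871452 (minus) for Irgm1 and chr3:142620596-142620621 (plus) for Gbp2. Those with overlap lie at chr19:34640796-34640821 (plus) for Ifit1, chr12:26456555-26456580 (minus) for Rsad2, chr5:120777717-120777742 (minus) for Oas3, chr5:120907522-120907547 (minus) for Oas1a and chr11:58214905-58214930 (plus) for Irgm2. All of these matches lie upstream of the RefSeq start site, so the same letters at similar places occurred in members that did and did not separate by genotype in MPP3. Irf1 encodes a transcription factor of the interferon response, and its window held no ISRE core but a GAS core, shown in capitals at chr11:53769916-53769940 (plus strand).
Irf1: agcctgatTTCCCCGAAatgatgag

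Irf7 had a window with neither motif, whereas Mx1, Zbp1 and Ifi27l2a were not among the windows. Many members sit side by side in the genome, in 10 clusters of neighbours within 500 kb. The largest were the 4 IFIT genes on chromosome 19 (chr19:34550694-34650009) and the IFITM genes with Irf7 on chromosome 7 (chr7:140954837-141266481).

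The targeted gene checked the labels. Zfp36 stood at 69.2, 32.5, 34.8 and 53.5 CPM (counts scaled to library size) in the Y-WT HSC libraries and at 105, 92.4, 85.4 and 96.2 CPM in Y-TTPΔARE HSC, and no library of either genotype reached into the other group in any of the 3 genotype comparisons. Its log2 fold change was 0.96 ± 0.21 (SE; edgeR adjusted p = 0.238) in young HSC, 0.97 ± 0.11 (0.002) in middle-aged HSC and 1.80 ± 0.18 (0.000646) in MPP3. Libraries held 24261371 to 39934554 counts in genes. The labels do not state that the libraries of a group came from separate animals, so p-values measure the spread between these libraries. HSC and MPP3, and young and middle-aged mice, carry library numbers from separate sets, so a set and an age or cell type cannot be told apart. The 7 HSC marker genes summed to 1145 to 2130.2 CPM in HSC libraries and to 602 to 836 CPM in MPP3, whereas the 6 granulocyte-monocyte markers of MPP3 summed to 106 to 262 CPM in HSC and 406 to 2305 CPM in MPP3. Of the latter, Prtn3 (91.1 to 249 CPM in HSC and 95.1 to 308 CPM in MPP3) and Cebpe overlapped between the cell types. Of the HSC markers, Hlf and Procr overlapped.

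Levels of the members spanned a wide range in unperturbed Y-WT HSC. Per kilobase of exon, the highest means were those of Ifitm3 at 979 and Ifitm1 at 682 CPM per kb, which encode membrane proteins that block viral entry, followed by Ly6e, a GPI-anchored surface protein, at 235 CPM per kb. The lowest were Mx1 and Ifit3b, both at 1.3 CPM per kb, and Mx2 at 1.89 CPM per kb, where Mx1 and Mx2 encode dynamin-like antiviral GTPases and Ifit3b an RNA-binding antiviral protein. Within groups the median coefficient of variation of the members was 7.75 to 12.1% in the HSC groups, 11.0% in Y-WT MPP3 and 22.3% in Y-TTPΔARE MPP3. Among the 6 groups the spread was thus widest in Y-TTPΔARE MPP3. In that group replicate 4 was the highest library for 22 of the 50 members and the lowest for 16.

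**Figure D2:**
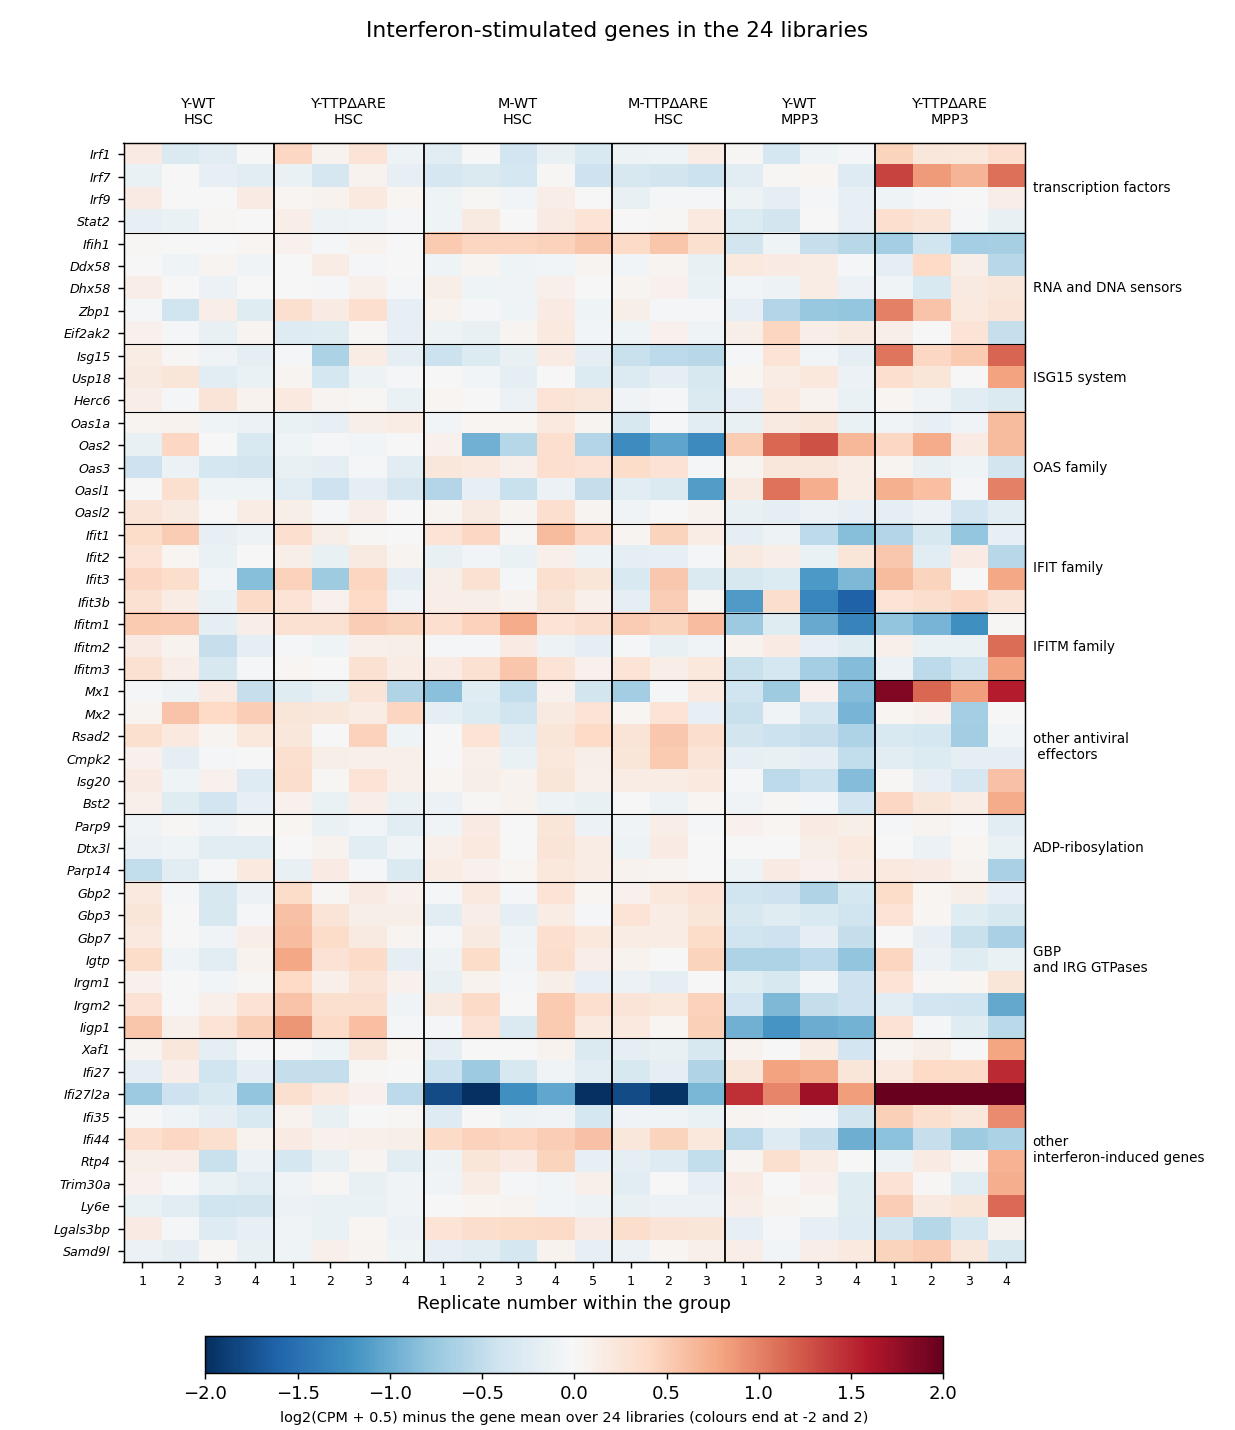
Level of each of the 50 members (lines, ordered by role) in each of the 24 libraries (columns, ordered by group), as log2(CPM + 0.5) relative to the mean of that member over all libraries. Irf7, Mx1 and Zbp1 are above their means in the 4 Y-TTPΔARE MPP3 libraries, while no HSC group lies as far above them for Irf7 or Mx1.

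In young MPP3, 4 of the 50 members rose with TTPΔARE and none fell (8% of the members, against 1.71% of the 19023 genes tested in either direction, 1.58% higher and 0.137% lower). Called here means an edgeR adjusted p under 0.05, a change of over 1.2-fold and an average logCPM over 1.5, and 49 of the 50 members passed that level (Ifit3b did not). Of the 19023 genes 12856 passed it, and only such genes could be called. Shares of all genes called are therefore lower, here and below, than shares of genes past the limit. The 4 called members were Mx1, Irf7, Ifi27l2a and Zbp1. The log2 fold change was positive for 34 members and negative for 16, with a median of 0.13 over the members, 0.04 over all genes tested and -0.002 over those past the logCPM limit. At an unadjusted p under 0.05 within the same limits, 16 members were higher and 1 was lower, against 5.91% and 4.04% of all genes. The Y-TTPΔARE libraries lay above all Y-WT libraries for 14 members and below them for none, against 5.6% and 6.66% of the genes over the logCPM limit.

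Among the transcription factors, Irf7, the factor that amplifies type I interferon production, rose. Irf7 stood at 41.5, 48.9, 49.3 and 40.1 CPM in Y-WT MPP3 and at 124, 87.2, 77.2 and 104 CPM in Y-TTPΔARE MPP3. The highest WT library was thus well below the lowest TTPΔARE library. The change was 2.13-fold (log2 1.09 ± 0.16 SE, edgeR adjusted p = 0.00534). Irf1, which shares the DNA-binding fold of Irf7, stood at 182 to 235 CPM in Y-WT and 269 to 317 CPM in Y-TTPΔARE MPP3, without overlap, with a log2 fold change of 0.39 ± 0.13 (edgeR adjusted p = 0.219). Irf7 spans chr7:141262706-141266481 on the minus strand (GENCODE M21, GRCm38), and 1.19% of its exonic bases overlap exons of its neighbour Phrf1.

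Among the antiviral effectors, Mx1 rose the most of all members. Mx1 stood at 3.88, 3.03, 5.63 and 2.64 CPM in Y-WT MPP3 and at 20.3, 12.3, 9.75 and 16.5 CPM in Y-TTPΔARE MPP3. The 2 groups did not overlap, although these are low levels, with 102 to 633 counts per library. The change was 3.82-fold (log2 1.93 ± 0.28, edgeR adjusted p = 0.00534). Mx1 lies at chr16:97447035-97462907 (minus strand) beside Mx2. Bst2, which encodes tetherin, a surface protein that holds budding virions, stood at 53.1 to 70.8 CPM in Y-WT and 77.2 to 117 CPM in Y-TTPΔARE MPP3 (log2 0.47 ± 0.12, edgeR adjusted p = 0.0852).

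Of the RNA and DNA sensors, Zbp1, a sensor of Z-form nucleic acid that can trigger necroptosis, rose. Zbp1 stood at 21.5, 15.9, 14.0 and 13.9 CPM in Y-WT MPP3 and at 49.0, 36.2, 27.7 and 29.0 CPM in Y-TTPΔARE MPP3. No library of one genotype lay within the range of the other. The change was 2.16-fold (log2 1.11 ± 0.23, edgeR adjusted p = 0.0411). The other 4 sensors had log2 fold changes on both sides of zero and none was called. The fourth call was Ifi27l2a, which encodes a small interferon-induced membrane protein, at 12.4, 8.70, 14.7 and 7.83 CPM in Y-WT and 27.4, 19.7, 18.5 and 49.9 CPM in Y-TTPΔARE MPP3. Replicate 4 of the latter group was its highest library, but the 3 others also lay above every WT library. The change was 2.53-fold (log2 1.34 ± 0.27, edgeR adjusted p = 0.0365).

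**Figure D3:**
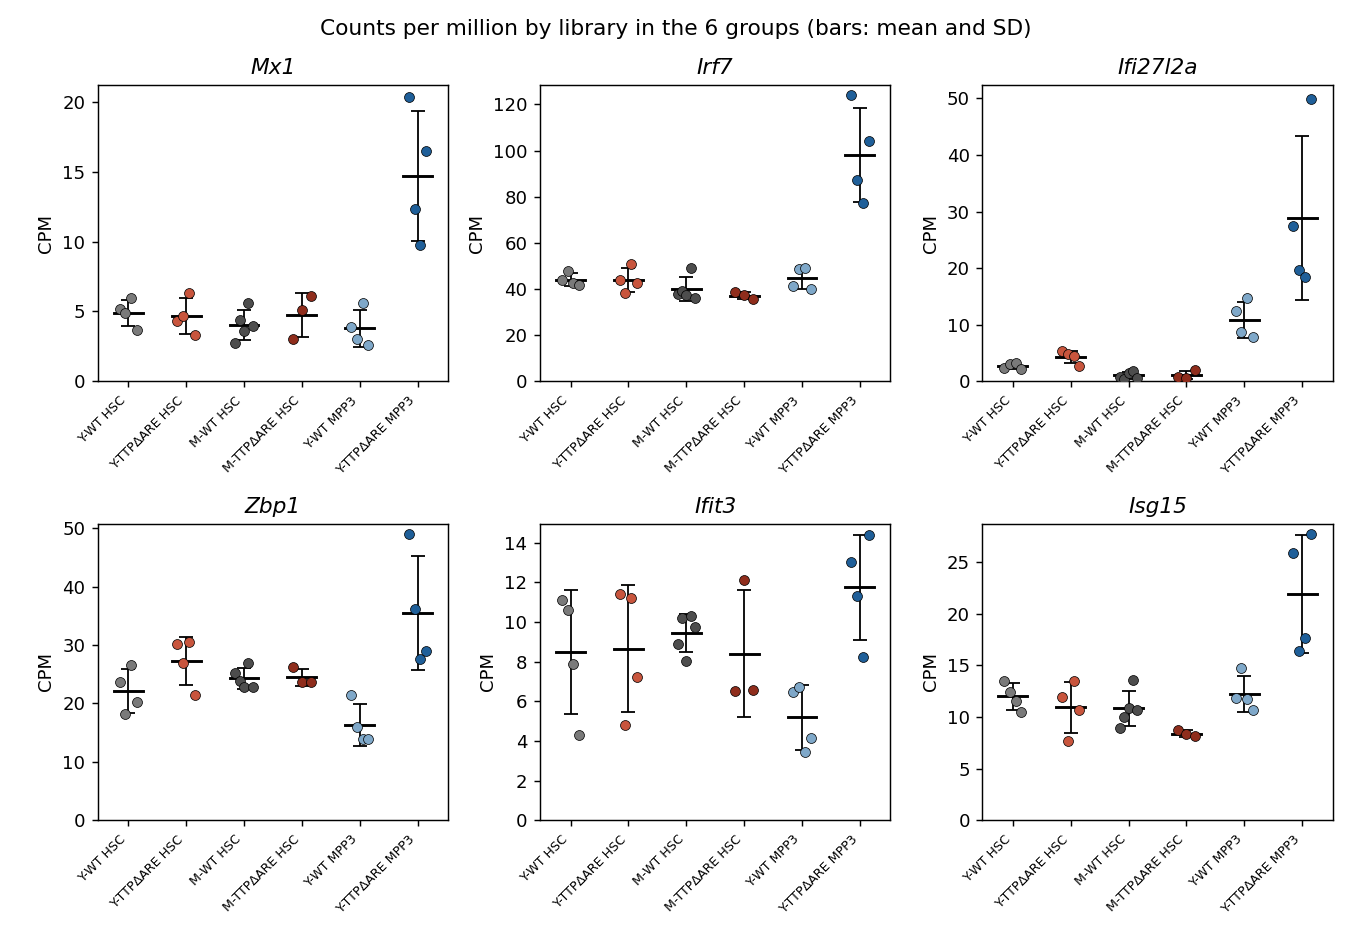
Level (CPM) in each library of the 6 members with the smallest p in MPP3 or with calls there, by group; each point is 1 library and each bar a group mean ± SD. In MPP3 every Y-TTPΔARE point lies above every Y-WT point for these members, whereas the HSC groups of both ages overlap for Mx1 and Irf7.

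Ifit3 and Isg15 came next in order of p and were not called. Ifit3, an RNA-binding effector of the IFIT family, stood at 6.45, 6.70, 3.42 and 4.15 CPM in Y-WT MPP3 and at 13.0, 11.3, 8.24 and 14.4 CPM in Y-TTPΔARE MPP3 (log2 1.14 ± 0.25, edgeR adjusted p = 0.0568). Isg15, the ubiquitin-like modifier itself, stood at 11.8, 14.7, 11.7 and 10.7 CPM in Y-WT and at 25.9, 16.4, 17.6 and 27.7 CPM in Y-TTPΔARE MPP3 (log2 0.79 ± 0.18, edgeR adjusted p = 0.0621). The groups did not overlap for either gene. Ifit3 shares 31.7% of its 100-base windows of exonic sequence with Ifit3b, so reads could have been assigned between these copies.

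The guanylate-binding proteins and immunity-related GTPases, which coat and rupture the vacuoles of intracellular pathogens, had positive log2 fold changes for 7 of 7 members (0.04 to 0.91), with no call. Iigp1 stood at 78.3, 67.2, 76.8 and 79.6 CPM in Y-WT MPP3 and at 188, 149.5, 130.3 and 105 CPM in Y-TTPΔARE MPP3 (log2 0.91 ± 0.21, edgeR adjusted p = 0.0633). Igtp stood at 73.4 to 88.1 against 107 to 170.5 CPM, Irgm1 at 132 to 169 against 179 to 213 CPM and Gbp2 at 75.0 to 89.7 against 102 to 148 CPM, each without overlap between WT and TTPΔARE. The other 3 of this group, Gbp3, Gbp7 and Irgm2, overlapped.

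The OAS family, named for the enzymes that make the 2-5A messenger of RNase L, had negative log2 fold changes for 4 of 5 members (-0.47 to 0.02). Oas2 stood at 15.0, 23.7, 25.8 and 16.7 CPM in Y-WT MPP3 and at 14.0, 17.8, 11.7 and 16.4 CPM in Y-TTPΔARE MPP3, with overlap (log2 -0.47 ± 0.21, edgeR adjusted p = 0.407). The 3 genes of ADP-ribosylation were also negative (-0.17 to -0.11). The ISG15 system, IFIT family and RNA and DNA sensors had members on both sides of zero. Whether the roles differed from each other was not tested.

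**Figure D4:**
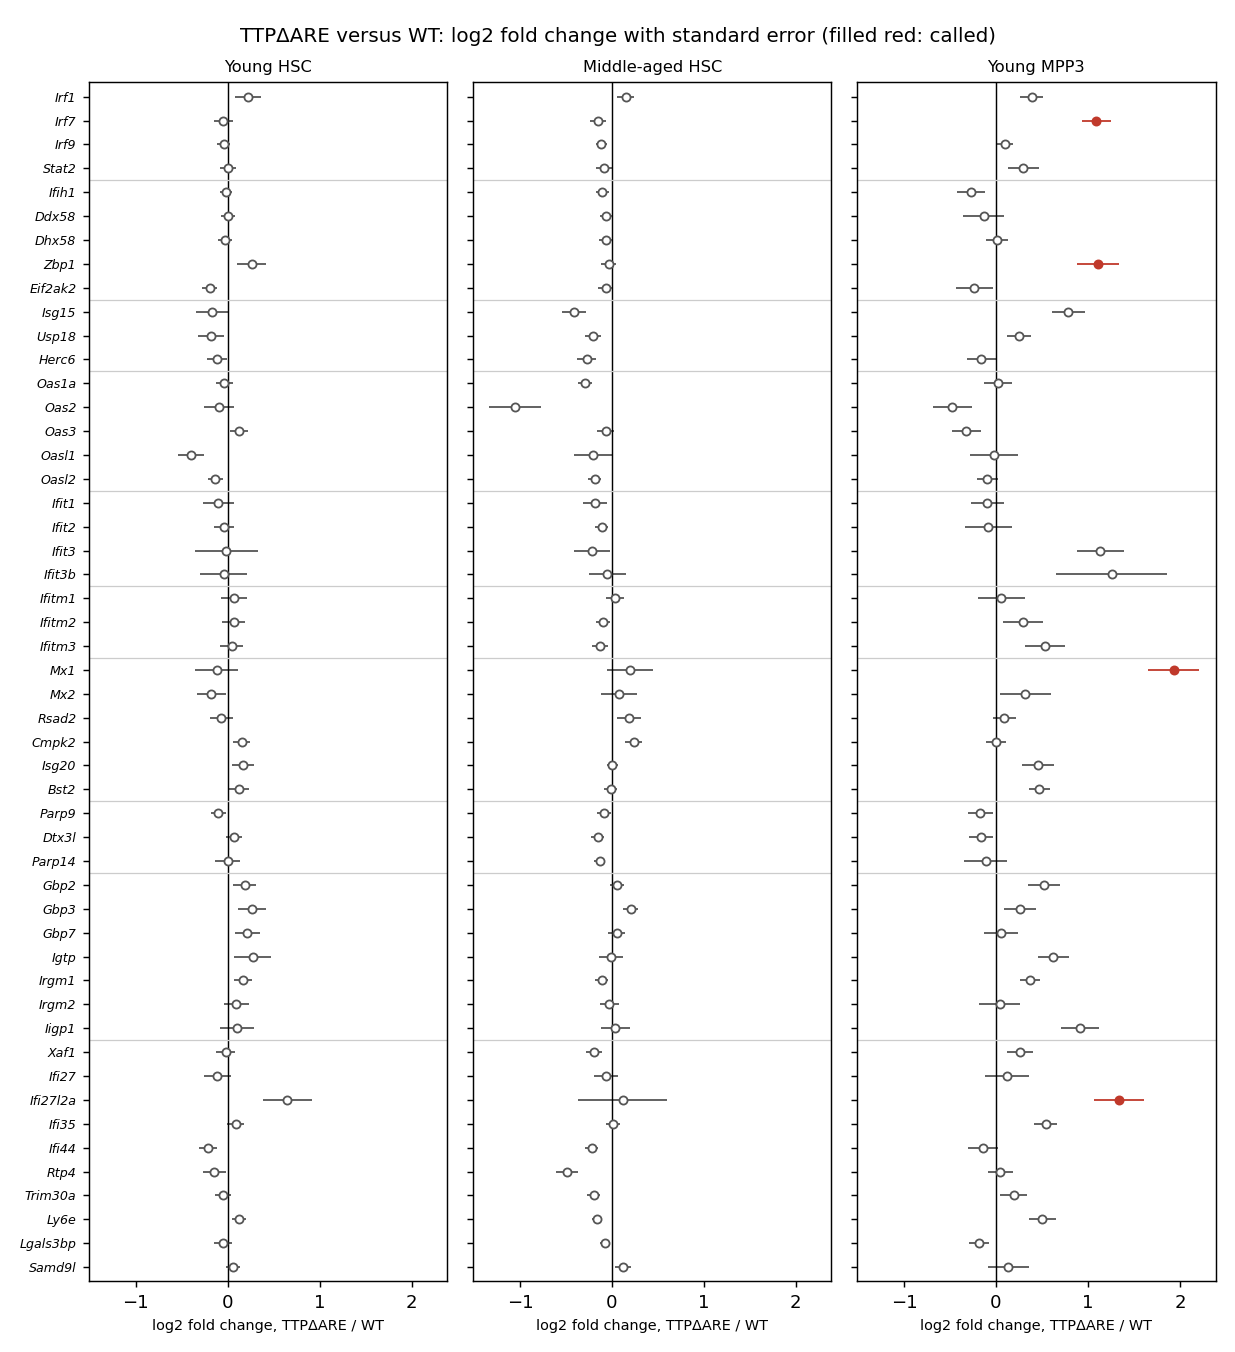
Log2 fold change of TTPΔARE over WT for each of the 50 members (points, grouped by role) in young HSC, middle-aged HSC and young MPP3, with bars of ± 1 SE; filled points are called. The 4 filled points, Mx1, Irf7, Ifi27l2a and Zbp1, are all in MPP3 and lie between 1.09 and 1.93.

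With DESeq2 13 members were called in MPP3 (26%, against 4.03% of all genes) and with the edgeR likelihood ratio test 10 (20%, against 2.84%), all higher. Without a filter on low counts 7 were called (14%, against 1.06%). Only Irf7 and Mx1 were called when Y-WT replicate 1, 2 or 4 or Y-TTPΔARE replicate 1 was left out (4%, against 0.879 to 1.24% of all genes). Without Y-WT replicate 3 or Y-TTPΔARE replicate 2, Zbp1 alone of the 4 was lost (6%, against 1.31% and 1.22%). Leaving out 1 library, the edgeR adjusted p reached 0.15 for Zbp1 and 0.137 for Ifi27l2a. Without Y-TTPΔARE replicate 4, 6 members were called (12%, against 1.67%). Irf7 and Mx1 were called under every one of the alternatives run for this comparison, with edgeR or DESeq2 adjusted p of at most 0.0367 and 0.0272.

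Members with an ISRE core in their window had a median log2 fold change of 0.26 in MPP3 (21 genes), those with a window lacking it 0.03 (16 genes) and those without a window 0.25 (13 genes). Role and class were mixed, since 6 of the 21 and none of the 16 were guanylate-binding proteins or immunity-related GTPases. Whether the classes differed was not tested. Of the 4 called members, Irf7 has a window without the core and the other 3 have no window. In young HSC the medians of these classes were 0.00, -0.03 and -0.10.

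Of 45 other genes of the interferon pathway (ligands, receptors, signal transducers and regulators), 30 were tested in MPP3, of which 6 were called higher (20%, against 1.58% of all genes) and none lower (0.137%). With the replicate number as a block 4 were called (1.28% of all genes), and with DESeq2 7 (4.03%). Without Y-WT replicate 2 or Y-TTPΔARE replicate 1 the count was 5 (0.996% and 0.879% of all genes). Both chains of the interferon gamma receptor rose. Ifngr1 stood at 164 to 194 CPM in Y-WT and 278 to 348 CPM in Y-TTPΔARE MPP3 (log2 0.79 ± 0.12, edgeR adjusted p = 0.00624). Ifngr2 stood at 42.3 to 51.8 and 62.5 to 88.2 CPM (log2 0.67 ± 0.11, 0.00965). The type I receptor chains Ifnar1 and Ifnar2 overlapped between genotypes, with log2 fold changes of 0.09 ± 0.20 and 0.11 ± 0.10.

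The other 4 pathway genes called were Irf8 and Irf5, transcription factors of myeloid cells, Tlr3, a receptor for double-stranded RNA, and Samhd1, a dNTP hydrolase that restricts viruses. Irf8 went from 24.0 to 63.0 CPM in Y-WT to 233 to 449 CPM in Y-TTPΔARE MPP3 (9.49-fold, edgeR adjusted p = 0.000762). Tlr3 went from 2.01 to 5.76 to 38.8 to 67.2 CPM (15.6-fold, 0.000478). Irf8 and Tlr3 are also markers of type 1 dendritic cells. A list of 8 such markers (Irf8, Batf3, Clec9a, Xcr1, Tlr3, Cadm1, Wdfy4 and Naaa), chosen after their values were seen, summed to 191 to 253 CPM in Y-WT and 658 to 1373 CPM in Y-TTPΔARE MPP3. All 8 had the higher mean in Y-TTPΔARE and 7 were called (Wdfy4 was not). None of the defining markers was at 0 in Y-WT MPP3, where Clec9a was at 0.693 to 1.66 and Xcr1 at 0.347 to 2.77 CPM, against 18.0 to 46.9 and 41.1 to 96.3 CPM. The 7 monocyte and macrophage markers summed to 109 to 396 in Y-WT and 340.4 to 630.1 CPM in Y-TTPΔARE MPP3. Of these, 5 were higher without overlap (Adgre1 at 2.21 to 5.19 and 15.8 to 26.2 CPM, Cd68 at 25.5 to 33.7 and 72.1 to 134 CPM), and C1qc and Ly6c2 overlapped. The 6 granulocyte-monocyte markers summed to 406 to 1493 and 1027 to 2305 CPM, and the 5 erythroid markers to 12.4 to 30.3 and 54.9 to 114 CPM. Other lists were lower in sum without overlap. The 5 stem and progenitor markers summed to 3718 to 4012 and 3353 to 3593 CPM. Of these, Kit was lower at 1256 to 1481 and 569 to 1129 CPM and Flt3 higher at 440.4 to 557 and 644 to 814 CPM. Both were without overlap, whereas Cd34, Ly6a and Cd48 overlapped. The 5 megakaryocyte and platelet markers summed to 139 to 154 and 82.3 to 96.4 CPM. There Itga2b was lower without overlap (88.8 to 134 and 52.2 to 72.7 CPM), whereas Pf4, Ppbp and Gp9 overlapped. The 5 endothelial markers summed to 150.4 to 183 and 115 to 147 CPM. Tek was lower (32.8 to 39.1 and 10.5 to 20.8 CPM) and Kdr higher (0 to 0.846 and 1.2 to 7.37 CPM), both without overlap, whereas Pecam1, Cdh5 and Emcn overlapped. The part of cell composition in the differences of the members was not tested.

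In young HSC none of the 50 members was called between TTPΔARE and WT by edgeR, against 0.0246% of 24381 genes. At an unadjusted p under 0.05 within the limits on fold and level, 1 member was higher and 1 lower, against 1.92% and 2.44% of all genes, and DESeq2 and the likelihood ratio test also called 0, against 1.25% and 0.599% of all genes. The log2 fold changes were positive for 23 members and negative for 27, with a median of -0.02 against -0.07 over all genes and 0.03 over those past the logCPM limit. This split was not stable, with 36 positive members when replicate 1 of Y-WT HSC or replicate 2 of Y-TTPΔARE HSC was left out or no filter on low counts was used, and 39 when replicate 4 of Y-TTPΔARE HSC was left out. Cmpk2, a mitochondrial nucleotide kinase, was the member with all TTPΔARE libraries higher, and Oasl1, an OAS-like inhibitor of Irf7 translation, the member with all of them lower, against 6.61% and 1.74% of genes over the logCPM limit. Oasl1 stood at 9.33, 11.8, 8.80 and 8.83 CPM in Y-WT HSC and 7.89, 6.92, 8.25 and 7.32 CPM in Y-TTPΔARE HSC (log2 -0.40 ± 0.14, edgeR adjusted p = 0.5).

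The next smallest p in young HSC were those of Eif2ak2 (log2 -0.20 ± 0.08), which encodes the double-stranded RNA kinase PKR, Ifi27l2a (0.65 ± 0.27), Ifi44 (-0.22 ± 0.09), Gbp3 (0.27 ± 0.15) and Irgm1 (0.16 ± 0.10), with edgeR adjusted p of 0.599 to 0.717. Of the genes called in MPP3, Irf7 stood at 41.7 to 48.0 CPM in Y-WT and 38.2 to 50.9 CPM in Y-TTPΔARE HSC, and Mx1 at 3.66 to 5.94 and 3.29 to 6.34 CPM, with complete overlap of the WT range in both cases.

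The interferon genes themselves were near or at the limit of counting, at 0 to 0.434 CPM in all groups for the ligands other than Ifng. Ifng stood at 0 to 0.295 CPM in Y-WT HSC and at 1.04 to 3.35 CPM in Y-TTPΔARE HSC, without overlap. However, Ifng lay under the logCPM limit in this comparison and so could not be called with it. With or without that limit, edgeR called 0 of the 32 pathway genes tested in young HSC (smallest edgeR adjusted p = 0.284). DESeq2 with the limit called 1 pathway gene, against 1.25% of all genes. Ifng overlapped between WT and TTPΔARE in middle-aged HSC (0 to 0.0956 and 0 to 0.943 CPM) and in MPP3 (0 to 0.067 and 0 to 0.385 CPM). The 6 T and NK cell markers summed to 53.5 to 68.0 CPM in Y-WT HSC and 86.2 to 157 CPM in Y-TTPΔARE HSC, and none was at 0. Their part in the Ifng difference was not tested.

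In middle-aged HSC none of the members was called either, against 1.41% of 21136 genes. At an unadjusted p under 0.05 within the limits, 5 members were lower and none higher, against 4.01% and 3.02% of all genes. DESeq2 called 3 (Oas1a, Oas2 and Rtp4), all lower (6%, against 3.95% of all genes), and the likelihood ratio test 1 (Oas2, lower; 2%, against 1.36%), shares near those of all genes. Of the members, 36 had a negative and 14 a positive log2 fold change, with a median of -0.08 against 0.01 over all genes and -0.03 over those past the logCPM limit. The M-TTPΔARE libraries lay below all M-WT libraries for 4 members (Rtp4, Oas2, Ly6e and Isg15) and above them for 2 (Cmpk2 and Gbp3), against 4.35% and 9.46% of genes over the logCPM limit.

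Oas2 stood at 11.1, 5.08, 6.82, 13.2 and 6.74 CPM in M-WT HSC and at 4.06, 4.75 and 4.00 CPM in M-TTPΔARE HSC. The gap was narrow, since M-WT replicate 2 was close to the TTPΔARE libraries, and the log2 fold change was -1.05 ± 0.28 (edgeR adjusted p = 0.0929). Rtp4, a chaperone of surface receptors that is induced by interferon, stood at 71.7, 91.8, 86.7, 105 and 69.0 CPM in M-WT HSC and at 67.4, 64.8 and 55.0 CPM in M-TTPΔARE HSC (log2 -0.49 ± 0.12, edgeR adjusted p = 0.074). Isg15 stood at 8.93, 9.96, 10.9, 13.6 and 10.7 CPM in M-WT HSC and at 8.74, 8.32 and 8.11 CPM in M-TTPΔARE HSC (log2 -0.41 ± 0.13, edgeR adjusted p = 0.154). For each of these genes the highest library was M-WT replicate 4, which was the highest M-WT library for 34 of the 50 members.

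Also among the smallest p were Oas1a (log2 -0.29 ± 0.08, edgeR adjusted p = 0.103), Ly6e (-0.16 ± 0.05, 0.133) and Ifi44 (-0.22 ± 0.07, 0.168). By role, the 5 OAS genes, 4 IFIT genes, 5 sensors, 3 genes of the ISG15 system and 3 genes of ADP-ribosylation were all negative, whereas 5 of 6 other antiviral effectors were positive. Oas1a and Rtp4 share 40.9% and 11.2% of their 100-base windows with other genes. Of the pathway genes, Socs3, a feedback inhibitor of cytokine signalling, fell by 1.83 on the log2 scale (edgeR adjusted p = 0.0222) and Irf5 rose by 0.32 (0.0362). Both calls were lost when any 1 of the 3 M-TTPΔARE HSC libraries was left out, and the likelihood ratio test called 1 pathway gene. They were also lost with the replicate number as a block, although the number did not pair these 2 groups by the data (correlations of 0 to 0.01).

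Whether the genotype difference itself depended on cell type was tested as an interaction in the young groups. The test called 2 of the 50 members, against 0.429% of 26337 genes, and at an unadjusted p under 0.05 within the limits 6 members had a positive and 3 a negative difference, against 1.97% and 6.97% of all genes. The log2 difference between the genotype effect in MPP3 and in HSC was 1.04 ± 0.19 for Irf7 (edgeR adjusted p = 0.022) and 1.94 ± 0.39 for Mx1 (0.0327). Both effects were higher in MPP3, where all 4 TTPΔARE libraries stood above WT, than in HSC, where they were within the WT range or on both sides of it. Over the alternatives run, the edgeR or DESeq2 adjusted p ranged from 4.99e-06 to 0.0623 for Irf7 and from 8.14e-05 to 0.0682 for Mx1. Neither passed when the replicate number was a block (edgeR adjusted p = 0.0623 and 0.0638), or without Y-WT HSC replicate 2 or Y-TTPΔARE MPP3 replicate 4, and only Irf7 passed without Y-WT HSC replicate 3, Y-TTPΔARE HSC replicate 1, 2 or 4, or Y-WT MPP3 replicate 2 or 4. DESeq2 called these and Isg15 (log2 0.96 ± 0.28, DESeq2 adjusted p = 0.037), against 1.25% of all genes. The next smallest p in edgeR were those of Oas3 at -0.56 ± 0.16 (edgeR adjusted p = 0.168), Isg15 at 0.88 ± 0.28 (0.225, and 0.037 to 0.446 over the alternatives), Zbp1 at 0.74 ± 0.29 (0.347) and Dtx3l at -0.34 ± 0.14 (0.381).

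The interaction of genotype with age in HSC called none of the members, against 0.0213% of 28189 genes, with 6 negative and none positive at an unadjusted p under 0.05 within the limits, against 5.17% and 1.37%. DESeq2 called 1 (Ly6e) and the likelihood ratio test 0, against 0.564% and 0.0958% of all genes. The log2 interaction was negative for 42 of the 50 members, with a median of -0.14, against 0.12 over all genes tested and -0.11 over those past the logCPM limit. The smallest p were those of Ly6e at -0.33 ± 0.10, Oas2 at -1.0 ± 0.34, Irgm1 at -0.32 ± 0.13, Oas1a at -0.30 ± 0.13, Dtx3l at -0.27 ± 0.12 and Rtp4 at -0.39 ± 0.18, with edgeR adjusted p of 0.252 to 0.327.

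Across cell types, members differed in both directions in young WT mice, with 4 higher and 12 lower in MPP3 than in HSC (32%, against 22.2% of 22816 genes, 14.5% higher and 7.69% lower). The logCPM limit was passed by 49 members and by 13433 genes, of which 5069 were called (3314 higher, 1755 lower). Against these genes the members' share was smaller for calls in total and larger for calls lower in MPP3. Without regard to calls, 7 members over the logCPM limit had all MPP3 libraries higher and 14 all lower, against 33% and 13.1% of such genes. The members higher in MPP3 included Ifi27l2a, at 2.19 to 3.27 CPM in HSC and 7.83 to 14.7 CPM in MPP3 (3.91-fold, log2 1.97 ± 0.22, edgeR adjusted p = 0.000267). Oas2 was at 8.33 to 14.0 and 15.0 to 25.8 CPM (1.89-fold, 0.0117), and Oas3 and Ifi27, a mitochondrial membrane protein, were higher by 1.36- and 1.56-fold. The 4 genes did not overlap between the cell types.

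The GTPases lay in the other direction, with 5 of 7 called lower in MPP3 and 6 of 7 without overlap. Iigp1 stood at 225, 164, 185 and 214 CPM in Y-WT HSC and at 78.3, 67.2, 76.8 and 79.6 CPM in Y-WT MPP3. All MPP3 libraries were far below all HSC libraries, and HSC were 2.69-fold higher (log2 -1.43 ± 0.14, edgeR adjusted p = 0.00011). Irgm2 and Igtp were 1.68- and 1.66-fold higher in HSC. Ifitm1 stood at 539 to 887 CPM in HSC and 244 to 520.4 CPM in MPP3 (2.13-fold higher in HSC, edgeR adjusted p = 0.012). Mx2 (1.89-fold), Ifi44, an antiviral protein (1.83-fold), and Rsad2, which encodes viperin (1.64-fold), were also higher in HSC, together with Ifitm3, Gbp7, Ifih1, Oasl2 and Irgm1. The 16 called members were all without overlap between HSC and MPP3. With the replicate number as a block 16 were also called (32%, against 21.7% of all genes), with Ifit1 and Isg20 in and Oasl2 and Irgm1 out.

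In Y-TTPΔARE mice 8 members were higher and 8 lower in MPP3 than in HSC (32%, against 16.3% of 21478 genes, 9.07% higher and 7.22% lower), and 10 members over the logCPM limit had all MPP3 libraries higher and 9 all lower, against 25% and 12.5% of such genes. Of the 13358 genes over the limit 3500 were called. Since the Y-WT and Y-TTPΔARE comparisons use separate libraries, values can be set side by side. Ifi27l2a was higher in MPP3 in both, by 6.00-fold here (edgeR adjusted p = 0.000278), and Ifi27 by 1.75-fold. Mx1 (2.94-fold), Irf7 (2.08-fold), Isg15 (1.85-fold), Oasl1 (1.79-fold), Ly6e (1.47-fold) and Ifi35 (1.33-fold), which encodes a leucine-zipper partner of Nmi, were called higher in MPP3 in TTPΔARE and not in WT mice. Of these 6 the edgeR interaction test given above passed for Mx1 and Irf7, but for neither with the replicate number as a block.

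Lower in MPP3 of Y-TTPΔARE mice were Ifitm1 (2.25-fold higher in HSC), Ifi44 (1.83-fold), Irgm2 (1.82-fold), Ifih1, the RNA sensor MDA5 (1.66-fold), Gbp7 (1.62-fold), Ifit1 (1.61-fold), Rsad2 and Cmpk2. Iigp1 stood at 284, 199.9, 233 and 149 CPM in Y-TTPΔARE HSC and 188, 149.5, 130.3 and 105 CPM in Y-TTPΔARE MPP3 and overlapped, although MPP3 was lower than HSC in each of the 4 pairs of the same number. With the replicate number as a block 19 members were called (38%, against 17.6% of all genes), with Gbp3, Igtp and Iigp1 added to the 16. The number called was 10, 9 and 10 without Y-TTPΔARE HSC replicate 1, 2 and 3, while the share of all genes called also fell, to 10.5%, 10.2% and 11.2%.

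**Figure D5:**
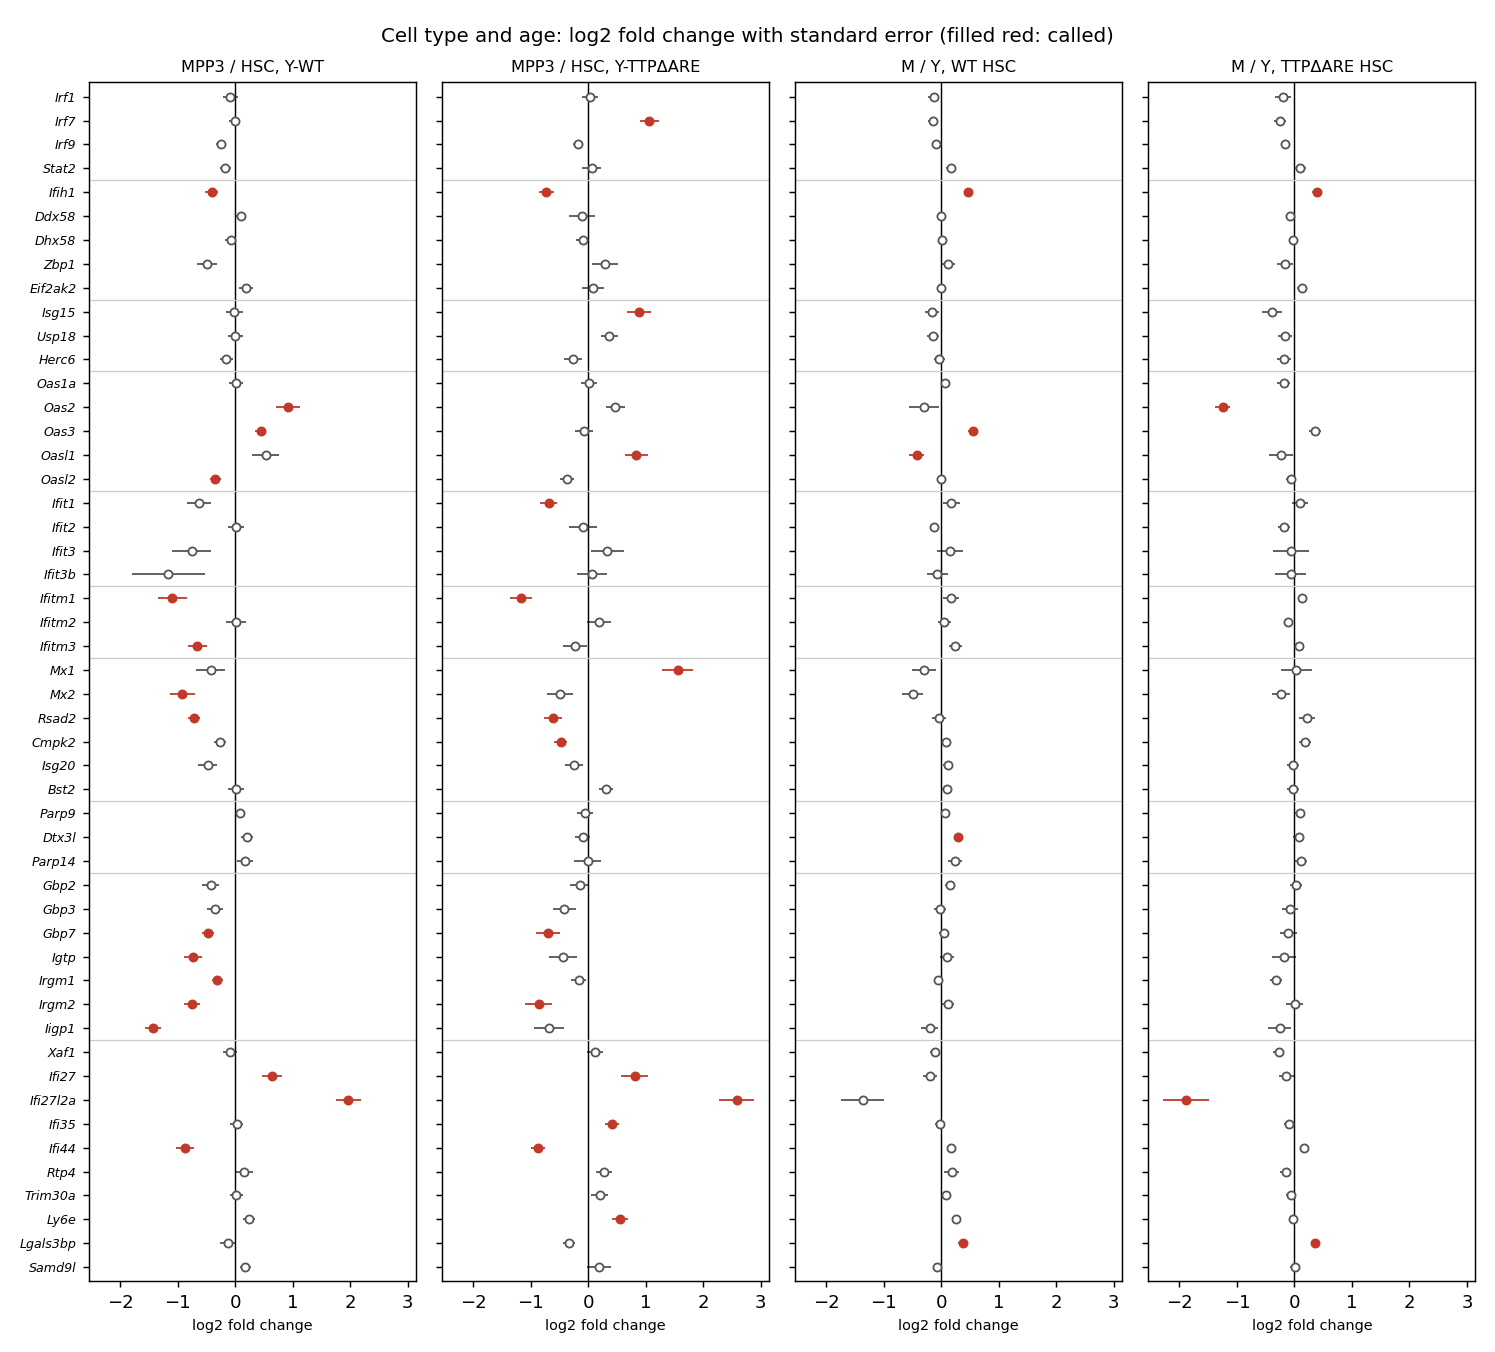
Log2 fold change of each member (points, grouped by role) between MPP3 and HSC in Y-WT and Y-TTPΔARE mice, and between middle-aged and young HSC in WT and TTPΔARE mice, with bars of ± 1 SE; filled points are called. Filled points reach from -1.43 (Iigp1) to 2.59 (Ifi27l2a) for cell type and from -1.88 (Ifi27l2a) to 0.54 (Oas3) for age.

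With age, 5 members were called in WT HSC (10%, against 12.1% of 22280 genes), with 4 higher and 1 lower against 8.38% and 3.69%. The logCPM limit was passed by 48 members and by 13648 genes, of which 2691 were called, a larger share than that of the members. All middle-aged libraries were higher for 5 members over the logCPM limit and lower for 1, against 16.3% and 5.07% of such genes. Oas3 was at 23.5 to 29.0 CPM in young and 33.8 to 40.1 CPM in middle-aged HSC (log2 0.54 ± 0.08, edgeR adjusted p = 0.00167). Ifih1 was at 53.2 to 54.7 and 72.2 to 79.1 CPM (log2 0.47 ± 0.06, 0.000943). For both genes every middle-aged library was above every young library. Lgals3bp, a secreted glycoprotein, rose by 0.37 and Dtx3l, the ubiquitin ligase partner of Parp9, by 0.29, while Oasl1 fell by 0.43 on the log2 scale. Oas3, Ifih1 and Lgals3bp were called under every alternative run for this comparison. Oasl1 was not called with the likelihood ratio test, without a filter, with the replicate number as a block or when replicate 1, 2, 3 or 5 of M-WT or 2, 3 or 4 of Y-WT was left out, and Dtx3l was not with the likelihood ratio test, the block or when replicate 4 of either group was left out. Ly6e (0.26) missed the fold limit and Ifi27l2a (-1.37) the limit on level. The count was 9 (18%, against 14.1% of all genes) without Y-WT HSC replicate 1 and 3 (6%, against 9.76%) without Y-WT HSC replicate 4.

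In TTPΔARE HSC 4 members were called with age (8%, against 8.22% of 23336 genes), 2 higher and 2 lower against 4.98% and 3.24%. Of the 13533 genes over the logCPM limit 1918 were called, a larger share than that of the members. All middle-aged libraries were higher for 3 members over the logCPM limit and lower for 5, against 19% and 12.9% of such genes. Ifih1, at 52.8 to 56.6 CPM in young and 67.1 to 79.1 CPM in middle-aged HSC, was higher by 0.39 ± 0.08 on the log2 scale (edgeR adjusted p = 0.0118), and Lgals3bp by 0.35 ± 0.07 (0.0107). Oas2 fell by 1.24 (edgeR adjusted p = 0.000309), from 9.73, 10.2, 9.95 and 10.5 CPM in Y-TTPΔARE to 4.06, 4.75 and 4.00 CPM in M-TTPΔARE HSC. Every middle-aged library was below every young library. Ifi27l2a fell by 1.88 (edgeR adjusted p = 0.0146), from 2.74 to 5.33 CPM to 0.698 to 1.97 CPM. The count was 2 without M-TTPΔARE HSC replicate 1 (Ifih1 and Oas2) or 2 (Lgals3bp and Oas2), 4% against 4.37% and 3.64% of all genes. The T and NK cell markers summed to 86.2 to 157 CPM in Y-TTPΔARE and 10.7 to 25.9 CPM in M-TTPΔARE HSC. In WT HSC they went from 53.5 to 68.0 to 8.74 to 21.1 CPM. The monocyte and macrophage markers summed to 67.7 to 90.4 and 16.0 to 23.1 CPM in TTPΔARE HSC, and overlapped between ages in WT. The HSC markers rose with age in sum, without overlap, in both genotypes. Of them Hlf, Mllt3 and Ctnnal1 overlapped between ages in WT. Ctnnal1 also overlapped in TTPΔARE HSC, where its mean went from 58.6 to 56.1 CPM. The part of cell composition in these differences was not tested.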

How the data were processed

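The authors deposited raw read counts per gene for 24 libraries, and, per the labels and the study's methods, reads were trimmed with Trim Galore! and Cutadapt, aligned with STAR to mm10 and counted with featureCounts in GENCODE M22 genes (strand setting not given in the sources used here). Starting from these counts, the 50 members and all lists were chosen with earlier results of these data known. For each comparison its own libraries were fitted over all genes in edgeR 4.0.16 (R 4.3.3) with filterByExpr (minimum count 10, total 15), TMM scaling and the quasi-likelihood test, 2-sided, with Benjamini-Hochberg adjustment over all genes tested. The SE is the absolute log2 fold change over the root of F. CPM were scaled by TMM over the 24 libraries. The alternatives were DESeq2 1.42.0, the likelihood ratio test, RLE scaling, no filter, no level limit, the replicate block and leaving out each library. Members called, at most 6 per direction, and, with under 6 calls, the 6 of smallest p were named in full, as were Zfp36 and called pathway genes. Members that did not overlap in MPP3 were named after their values were seen. Scripts were tested on simulated data. Libraries with the same number in Y-TTPΔARE HSC and MPP3 deviated together over 13554 genes (correlations of 0.16 to 0.26), so these numbers pair them by the data only. Between WT and TTPΔARE such correlations were -0.13 to 0.06 in young HSC, 0 to 0.01 in middle-aged HSC and -0.11 to 0.18 in MPP3. The block therefore had little pairing to remove in the genotype comparisons, and pairing between ages was not checked. The kit is named differently in the labels and the methods. The study gives 3 Y-TTPΔARE MPP3 samples in its results and a figure legend, whereas 4 libraries carry this label, and all 4 were used here. A gene of the pathway list is not reported here by name.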

Additional observations from a re-analysis of the deposited data

Results flagged for a closer look

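In the interaction of genotype and cell type in young mice, the genotype effects in MPP3 and HSC differed by 1.04 on the log2 scale for Irf7 (edgeR adjusted p = 0.022) and by 1.94 for Mx1 (edgeR adjusted p = 0.0327), with the interaction term as the test. With the replicate number as a block neither passed (edgeR adjusted p = 0.0623 and 0.0638). Single libraries stood apart from their group for 2 members: Irf7 was at 49.1 CPM in M-WT HSC replicate 4, above 36.2 to 39.2 CPM in the other 4 libraries, and Oas1a was at 59.0 CPM in Y-TTPΔARE MPP3 replicate 4, above the other 3. Over the 15 members examined in this way 75 groups of 4 or 5 libraries were tested for a library set apart by its gap to the nearest other, and 2 were found, where chance picks about 1 group in 20.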

How the results depend on the processing

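In MPP3 the count of members raised by TTPΔARE was 4, and it was 13 with DESeq2, 10 with the likelihood ratio test and 7 without a filter. Chosen after seeing the data, the likelihood ratio test and DESeq2 without Y-TTPΔARE MPP3 replicate 4 called 9 and 15 (2.61% and 4.52% of all genes). In middle-aged HSC the count was 0, and it was 3 with DESeq2, 1 with the likelihood ratio test and 2 without a filter (1.85% of all genes). For age, the likelihood ratio test called 3 in WT HSC (6%, below the share of all genes), DESeq2 7 in TTPΔARE HSC (14%, against 10.9% of all genes), and DESeq2 1 for the interaction with age (2%, against 0.564%). With the replicate number as a block, the count was 0 for the interaction with cell type and 2 for age in TTPΔARE HSC (0.421% and 3.92% of all genes), and in MPP3 it was 4 (Ifit3 in, Ifi27l2a out). Leaving out 1 library gave 0 to 0 members in young HSC, 0 to 1 in middle-aged HSC (Oas2 without M-WT replicate 2, Rtp4 without M-WT replicate 5), 2 to 6 in MPP3, 12 to 18 for cell type in Y-WT, 9 to 16 in Y-TTPΔARE, 3 to 9 for age in WT HSC, 2 to 5 in TTPΔARE HSC, 0 to 1 for the interaction with age (Ly6e without Y-WT HSC replicate 1) and 0 to 2 for that with cell type. The cause was not tested. RLE scaling and DESeq2 each called 23 for cell type in Y-WT, where 16 were called with TMM (46% against 23.5% and 25.6% of all genes, and 32% against 22.2%). In the genotype comparisons, of 264 values of single named members under alternatives, 234 kept direction and side of the threshold, 19 passed it newly, 11 no longer passed it and 0 changed direction. Low levels (Mx1, Ifit3b, Ifi27l2a in middle-aged HSC) rest on few counts.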
